A study of Arabidopsis thaliana with 6 samples.

Results

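The response of Arabidopsis thaliana miRNAs to flg22 was compared within 3 genotypes, each represented by 1 flg22 library and 1 untreated library. The members were the rows of the deposited count table with at least 10 counts in at least 2 of the 6 libraries, with rows that held identical counts in every library entered once. Of 679 genomic intervals in the table, 187 passed and gave 136 members, 93 mature miRNAs and 43 star strands (the strand paired with the mature miRNA in the duplex), from 74 families. Every library was in the comparison, and a direction was counted as shared where the flg22 library was higher, or lower, than the untreated one in all 3 genotypes.

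Small RNA had been sequenced from 10-day-old Col-0 seedlings of the wild type (WT), of parg1-1 and of parp1parp2. Seedlings grew on agar plates and were moved to water the day before treatment; the labels do not treat the untreated groups separately here. The treated groups received 100 nM flg22, for a time that the labels used here do not state. The WT groups were Col-0 seedlings without a named mutation, untreated or given flg22. The parg1-1 groups carried the parg1-1 allele of a gene for poly(ADP-ribose) glycohydrolase, untreated or given flg22. The parp1parp2 groups carried mutations in the genes for PARP1 and PARP2, whose alleles the labels do not name, untreated or given flg22. No library had a replicate. Whether the seedlings of different libraries were grown separately is not stated, and the p-values below therefore describe variation among 6 libraries, part of which may be technical. The samples were whole seedlings, in which a change in miRNA per cell and a change in the make-up of tissues cannot be told apart.

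Flg22 is a peptide of bacterial flagellin that the receptor kinase FLS2 binds, which starts pattern-triggered immunity. Plant miRNAs are cut from hairpin precursors by DCL1, with help from proteins such as DAWDLE, and 1 strand of the duplex is loaded into an ARGONAUTE protein that silences matching mRNAs. In Arabidopsis, miR393 acts in this immune response by lowering the auxin receptors TIR1 and AFB, and miR160 and miR167 act on auxin response factors. PARP enzymes attach ADP-ribose polymers to proteins and PARG enzymes remove them, and the study's title links these polymers to DAWDLE and immunity.

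The sequences below are those the results turn on. miR408 and miR168b-star are shown for their shared direction, and the others because they stand in pairs that differ by 1 or 2 bases and may share reads. They were read from the TAIR10.1 reference of RefSeq at the deposited coordinates, since all 337 mature intervals of the table coincide with mature miRNAs annotated there. Bases 2 to 8, the seed, are in capitals.
miR408: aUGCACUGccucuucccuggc
miR168a-star: cCCGCCUUgcaucaacugaau
miR168b-star: cCCGUCUUguaucaacugaau
miR393b-star: aUCAUGCGaucucuuuggauu
miR393a-star: aUCAUGCUaucucuuuggauu
miR395b: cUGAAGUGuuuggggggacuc
miR395a: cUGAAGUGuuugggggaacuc
miR398b: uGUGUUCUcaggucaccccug
miR398a: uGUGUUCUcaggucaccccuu
miR159b: uUUGGAUUgaagggagcucuu
miR159C: uUUGGAUUgaagggagcuccu

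With positions counted from 1 at the 5′ end of the member with more counts, which stands first in each token, miR398b and miR398a differ by G21U. miR159b and miR159C differ by U20C, and miR395b and miR395a by G17A. These 3 pairs share the seed. miR393b-star and miR393a-star differ inside the seed, by G8U, and miR168a-star and miR168b-star by C5U inside it and C10U outside. How the authors assigned reads to such close pairs is not stated in the labels used here, so counts of the less counted member of each pair are uncertain.

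miR408 lies at chr2:19319933-19319953 on the plus strand, and an exon of the protein-coding gene AT2G47020 overlaps it on the other strand. miR168a-star is at chr4:10578737-10578757 and miR168b-star at chr5:18358803-18358823, each at 1 locus outside protein-coding genes. miR393a-star is at chr2:16652205-16652225 and miR393b-star at chr3:20691778-20691798. miR398a is at chr2:1041012-1041032, and miR398b stands at 2 loci, the first of them at chr5:4691107-4691127. miR159C is at chr2:18994826-18994846 and miR159b at chr1:6220813-6220833. miR395a and miR395b fill 3 loci each, the first at chr1:9363206-9363226 and chr1:9364540-9364560.

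The members held 142060 counts in WT without flg22 and 187420 with it, 166030 and 164796 in parg1-1, and 126193 and 119608 in parp1parp2. The limit that a count of 0 allows, 3 counts, is equal to 16.0 to 25.1 CPM (counts after every library is brought to 1 shared total) in the 6 libraries. The 5 most counted members, miR398b, miR159a, miR159b, miR166a and miR158a, took 54.1 to 59.2% of the counts of a library. Levels below are CPM scaled by TMM factors (scaled CPM), and intervals of ratios are exact conditional binomial (Clopper-Pearson) 95% intervals that cover counting error only.

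In 5 of 6 cases, libraries of the same treatment from different genotypes were farther apart than the flg22 and untreated libraries of any 1 genotype. The chi-square of member counts per degree of freedom, for which sampling alone gives about 1, was 19.1 between treatments in WT, 26.5 in parg1-1 and 18.7 in parp1parp2. Between genotypes at equal treatment it ran from 17.1 to 90.5. The parg1-1 library with flg22 stood apart, at 55.0 and 90.5 from the flg22 libraries of the other genotypes. The smallest distance of all 15 pairs was 16.3, between untreated WT and parp1parp2 with flg22, which share neither genotype nor treatment. Over the 52 members with at least 50 counts in every library, the median absolute log2 ratio was 0.18 to 0.22 between treatments and 0.23 to 0.48 between genotypes.

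**Figure D1:**
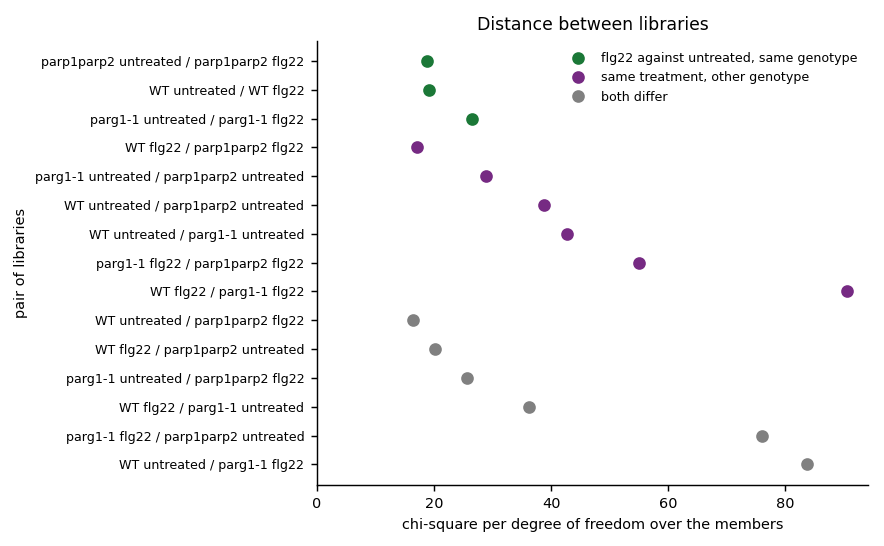
Distance between each pair of the 6 libraries as chi-square per degree of freedom over the 136 members. Each point is 1 pair; the 3 flg22 pairs lie at 18.7 to 26.5, the pairs of genotypes at 17.1 to 90.5, and the largest values all involve the parg1-1 library with flg22.

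No miRNA met the threshold for a flg22 response shared by the genotypes. edgeR's quasi-likelihood test of treatment, with genotype as the block, called 0 of 136 members at a Benjamini-Hochberg adjusted p under 0.05 (0.0% of those tested). At an unadjusted p under 0.05 there were 4 members, miR398a, miR168b-star, miR393a-star and miR156b-star, all with higher estimates. DESeq2 with the same model called 0 and had 0 members at an unadjusted p under 0.05. The smallest adjusted p in edgeR was 0.297. Leaving out the parg1-1 library with flg22, which takes that genotype out of the comparison, again gave 0 calls, with 5 members at an unadjusted p under 0.05.

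The fit bounded the size of a shared change for most members. The median SE of the log2 fold change was 0.27, with a range from 0.15 to 0.97. For 95 members the 95% interval of the fold change lay within 2-fold in either direction, and for 41 it reached 2-fold. Changes smaller than these intervals were not detectable with these libraries.

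Direction was shared by 29 members, or 21.3% of the 136. Of these 17 were higher with flg22 in all 3 genotypes (12.5%) and 12 were lower (8.82%), and 107 members went one way in some genotypes and the other way in others. If each sign were even and independent, 25% of members would share it, so the observed share is near that background. Scaling by total counts gave 12 higher and 19 lower. Under each of the 3 scalings tried, 22 of the 29 were on their side of 0, 11 higher and 11 lower; the 7 others were miR161.2, miR398a, miR157C-star, miR162a-star, miR156f-star, miR396b and miR319b-star.

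**Figure D2:**
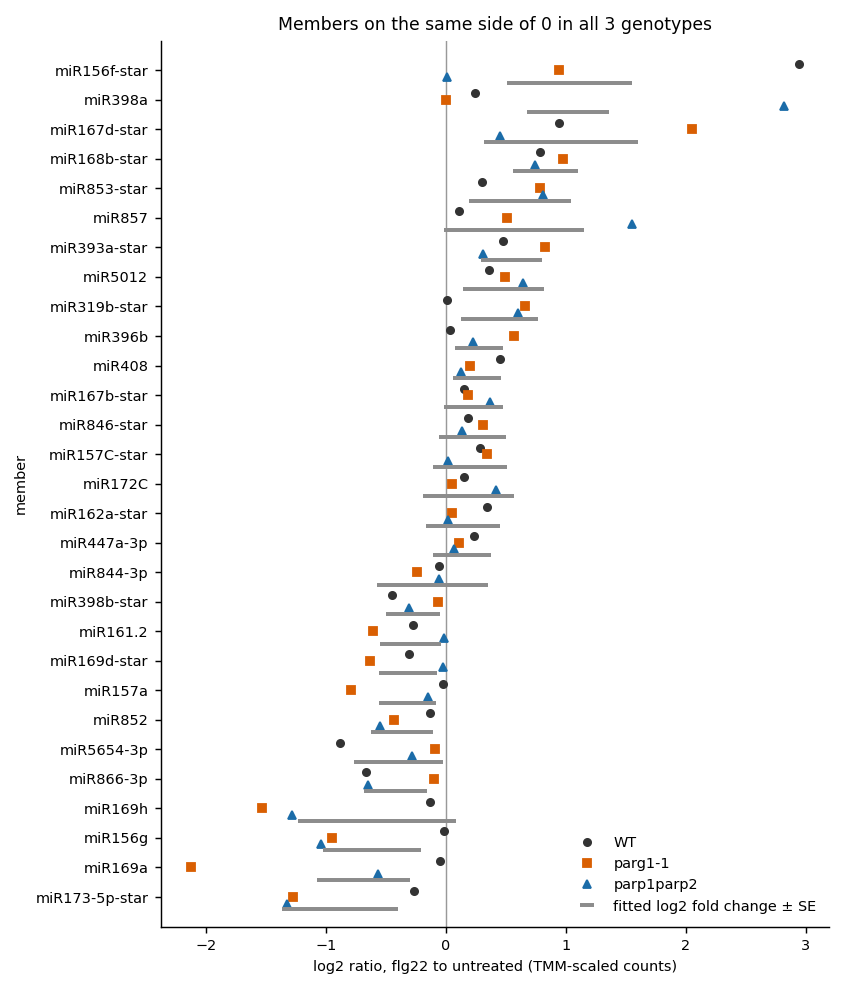
The 29 members on 1 side of 0 in all 3 genotypes, with the log2 ratio of flg22 to untreated in WT, parg1-1 and parp1parp2 as points and the edgeR log2 fold change ± SE as a grey bar. The points of miR168b-star lie between 0.74 and 0.98.

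Counting intervals narrowed this to a single member. In WT the interval lay above 0 for 24 members (17.6%) and below for 13 (9.56%). In parg1-1 it lay above for 20 (14.7%) and below for 27 (19.9%), and in parp1parp2 above for 20 (14.7%) and below for 19 (14.0%). It lay above 0 in all 3 genotypes for 1 member, miR408 (0.735%), and below 0 in all 3 for 0 members (0.0%). It included 0 in every genotype for 66 members, lay on 1 side in 1 or 2 genotypes for 44, and lay on opposite sides in different genotypes for 25.

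miR408 silences mRNAs of the copper proteins plantacyanin and laccase, and accumulates when copper is scarce. Its level was 19148 scaled CPM in untreated WT and 26199 with flg22, 30111 and 34535 in parg1-1, and 23614 and 25770 in parp1parp2. The flg22 library was the higher in each genotype, but the groups overlap, because untreated parg1-1 was above the flg22 libraries of WT and parp1parp2. In WT the log2 ratio was 0.45 (0.39 to 0.52). It was 0.20 (0.14 to 0.25) in parg1-1 and 0.13 (0.05 to 0.20) in parp1parp2. The shared log2 fold change was 0.26 ± 0.20 (SE), with an edgeR adjusted p of 0.999. With scaling by total counts the parp1parp2 interval ran from -0.0016 to 0.15 and no longer excluded 0.

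The other copper miRNAs had no common course. Of 8 copper members, 3 were higher in all 3 genotypes (miR408, miR857 and miR398a, the last not with scaling by total counts) and 1 was lower, with a median log2 fold change of 0.01 beside -0.001 over all members. miR398b, which silences copper-zinc superoxide dismutases, was the most counted member, at 202311, 159987 and 161091 scaled CPM untreated in WT, parg1-1 and parp1parp2. With flg22 it stood at 188377, 148820 and 191070. It was lower in WT and parg1-1 and higher in parp1parp2, with log2 ratios of -0.10, -0.10 and 0.25, and a log2 fold change of 0.01 ± 0.15 (SE). Its star strand, miR398b-star, was lower in all 3, at log2 ratios of -0.45, -0.07 and -0.31, and the interval in parg1-1 (-0.16 to 0.02) included 0. miR857, which silences a laccase, was higher in all 3 on counts of 3 to 14.

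Members whose flg22 libraries were all above or all below the untreated ones were 6 of 136. The flg22 libraries were all higher for 4 (2.94%), miR168b-star, miR393a-star, miR167b-star and miR857. They were all lower for 2 (1.47%), miR156g and miR173-5p-star. Some members would separate in this way under a random order of the libraries. The 6 are therefore not read as a result about these members. The number under a random order was not calculated, and the separation was not tested.

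miR168b-star had the smallest p of the additive test. Its mature partner, miR168, silences AGO1, the main effector of miRNAs. It held 21, 20 and 19 counts in the untreated WT, parg1-1 and parp1parp2 libraries and 47, 38 and 29 with flg22. In scaled CPM these are 140, 121 and 152 untreated and 242, 238 and 253 with flg22, so the groups do not overlap. The log2 ratios were 0.78, 0.98 and 0.74, and the shared log2 fold change was 0.83 ± 0.27 (SE), with an edgeR adjusted p of 0.297. The interval in parp1parp2, from -0.14 to 1.66, included 0.

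The mature strand had no shared direction. miR168a, which stands at 2 loci, was at 1860 scaled CPM in untreated WT and 2668 with flg22, 2355 and 2248 in parg1-1, and 4166 and 2622 in parp1parp2. It was higher with flg22 in WT and lower in parp1parp2, with log2 ratios of 0.52, -0.07 and -0.67. miR168a-star, the star strand of the other precursor, was higher in parp1parp2 at a log2 ratio of 0.72 and near 0 in WT and parg1-1, at 0.08 and -0.08. miR168b-star held 6.69 to 15.8% of the counts of miR168a-star, from which it differs by 2 bases.

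The other miRNAs that act on the small RNA machinery were also mixed. miR162a, which silences DCL1, had a log2 ratio of 0.30 in WT and 0.51 in parg1-1 but -0.10 in parp1parp2, and all 3 intervals excluded 0. miR403, which silences AGO2, had log2 ratios of -0.06, 0.11 and 0.34. Of the 6 members of this group, 2 were higher in all 3 genotypes (miR168b-star and miR162a-star) and 0 were lower, and the median log2 fold change was 0.19.

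miRNAs reported to rise after flg22 or bacteria, the families miR160, miR167 and miR393, gave 13 members, of which 0 passed the additive test. Of the 13, 3 were higher in all 3 genotypes, 0 were lower, and 10 were mixed. The 3 were star strands, miR167d-star, miR167b-star and miR393a-star, and every mature member of these families was mixed. miR167d-star held only 2 to 15 counts. Over all 13 the median log2 ratio was 0.17 in WT but -0.14 in parg1-1 and -0.007 in parp1parp2.

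miR393a-star was among the 3 that shared a direction. It held 31 counts in untreated WT and 56 with flg22, 31 and 53 in parg1-1, and 23 and 26 in parp1parp2. The flg22 libraries, at 227 to 332 scaled CPM, were all above the untreated ones, at 184 to 207. The log2 ratios were 0.47, 0.82 and 0.31, and only the interval of parg1-1 (0.16 to 1.51) excluded 0. The log2 fold change was 0.55 ± 0.25 (SE), with an edgeR adjusted p of 0.999.

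Its mature partner miR393a, the strand that silences auxin receptors, held 24, 21 and 22 counts untreated in WT, parg1-1 and parp1parp2 and 34, 10 and 20 with flg22. The log2 ratios were 0.12, -1.02 and -0.01, and every interval included 0. miR393b-star, which in Arabidopsis acts with AGO2 on a SNARE gene, MEMB12, was at 4603, 5884 and 5666 scaled CPM untreated and at 5773, 5424 and 5671 with flg22. Its ratio was above 0 in WT, at 0.33 (0.19 to 0.47), and near 0 in parg1-1 and parp1parp2, at -0.12 and 0.00.

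miR160a and miR167d, which silence auxin response factors, had ratios on opposite sides in WT and parg1-1. miR160a had log2 ratios of 0.14, -0.62 and -0.10. miR167d was at 3332 scaled CPM in untreated WT and 4714 with flg22, 3178 and 1234 in parg1-1, and 4884 and 4404 in parp1parp2. Its log2 ratios were 0.50 (0.34 to 0.66), -1.37 (-1.61 to -1.13) and -0.15 (-0.32 to 0.02). The low value is that of the parg1-1 library with flg22, the library that stood apart from the others. The more counted miR167a had ratios of 0.17, -0.14 and -0.28.

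Members of families that others found lowered by pathogen patterns or infection were as mixed. Of 6 members from the miR398, miR472 and miR825 families, 1 was higher in all 3 genotypes, 1 was lower and 4 were mixed. miR472, which silences immune receptors of the nucleotide-binding leucine-rich repeat class, had log2 ratios of 0.07, -0.19 and 0.15, and every interval included 0. miR825 held 25 counts in untreated WT and 67 with flg22, 38 and 28 in parg1-1, and 31 and 25 in parp1parp2. Its ratio was 1.04 in WT (0.36 to 1.77), with intervals including 0 in the mutants.

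**Figure D3:**
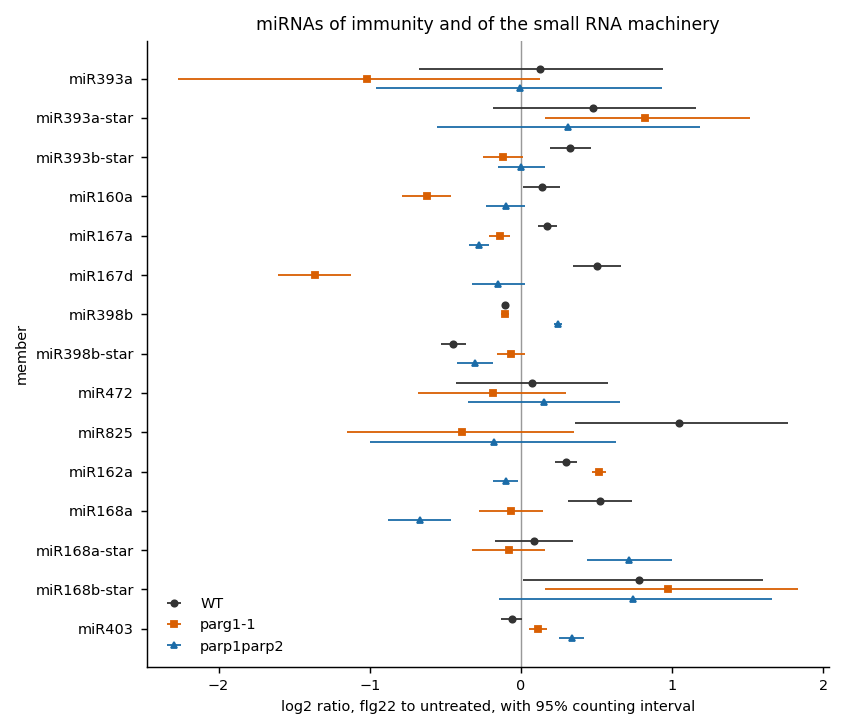
Log2 ratio of flg22 to untreated, with 95% counting interval, for 15 members linked to immunity or to the small RNA machinery. Among them, miR168b-star, miR393a-star and miR398b-star lie on 1 side of 0 in every genotype; miR162a, miR168a and miR167d lie on both sides.

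The responses of WT and parp1parp2 went in opposite directions for more members than they shared. Between WT and parg1-1, 74 members had the same sign (54.4%), and between parg1-1 and parp1parp2 69 had (50.7%). Between WT and parp1parp2, 51 had (37.5%). Where both intervals excluded 0, WT and parp1parp2 were on the same side for 3 members and on opposite sides for 19. The corresponding counts were 12 and 10 for WT and parg1-1, and 14 and 11 for parg1-1 and parp1parp2. The difference between these counts was not tested, and the members share their libraries. Whether the labels of the parp1parp2 pair are in the right order was not tested. If they were exchanged, every parp1parp2 ratio would change sign and its counts of same and opposite sides with either other genotype would change places. The closest libraries of all, at 16.3, were untreated WT and the library labelled parp1parp2 with flg22. The untreated libraries of both genotypes were at 38.8 and their flg22 libraries at 17.1. WT with flg22 and the library labelled untreated parp1parp2 were at 20.2. The library labelled parp1parp2 with flg22 was about equally near to both WT libraries. The library labelled untreated parp1parp2 was nearer to WT with flg22 than to untreated WT. What these distances mean for the labels was not tested.

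**Figure D4:**
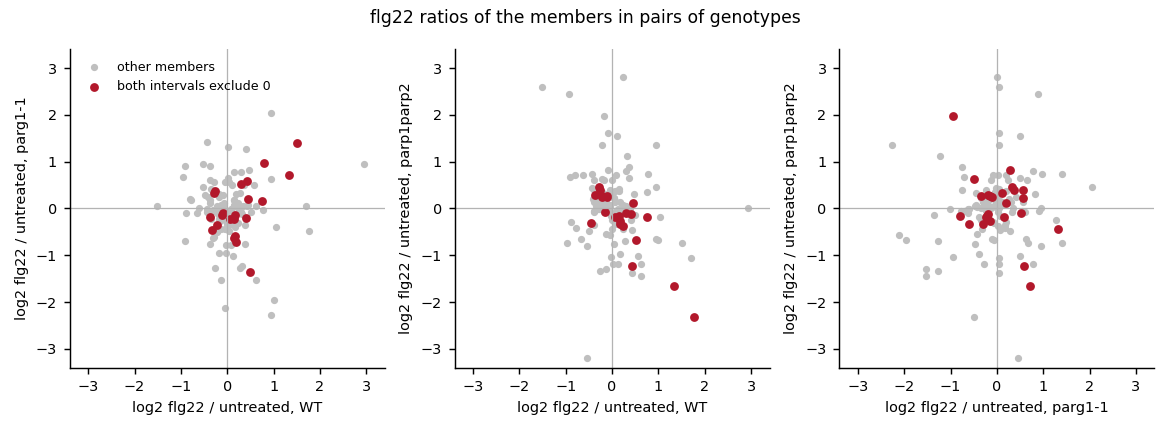
Log2 ratio of flg22 to untreated of each member in 1 genotype against another. Red points have intervals that exclude 0 in both genotypes; 19 of 22 such points lie on opposite sides for WT and parp1parp2.

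A genotype-specific response was tested with a term for 1 genotype added to the additive model, with 1 residual degree of freedom. The test cannot tell a response of that genotype from a deviation of either of its single libraries, and the direction of each term for parp1parp2 rests on the labels of that pair. For WT edgeR called 1 of 136 members (0.735%), for parg1-1 0 (0.0%) and for parp1parp2 5 (3.68%). For parg1-1, 7 members had an unadjusted p under 0.05 in edgeR and 1 had in DESeq2, which called 0. DESeq2 called 0 for WT, with 6 at an unadjusted p under 0.05, and 3 for parp1parp2, miR395b, miR398a and miR159C.

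miR395, which silences ATP sulfurylases and a sulfate transporter and accumulates when sulfate is scarce, was higher with flg22 in WT and lower in parp1parp2. miR395b held 62 counts in untreated WT and 203 with flg22, 83 and 132 in parg1-1, and 138 and 40 in parp1parp2. The highest levels were those of WT with flg22 and of untreated parp1parp2, at 1044 and 1101 scaled CPM, and the lowest were those of parp1parp2 with flg22 and of untreated WT, at 350 and 415. The log2 ratios were 1.33 (0.91 to 1.77), 0.72 (0.31 to 1.13) and -1.66 (-2.20 to -1.14). The term of parp1parp2 was -2.67 ± 0.53 (SE; edgeR adjusted p = 0.000182).

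miR395a held 12 counts in untreated WT and 53 with flg22, 16 and 11 in parg1-1, and 33 and 6 in parp1parp2. Its log2 ratios were 1.76, -0.49 and -2.33. The edgeR term was 3.14 ± 0.66 (SE) for WT, with an adjusted p of 0.000634. For parp1parp2 it was -3.12 ± 0.72 (SE), with an edgeR adjusted p of 0.00104. The WT term was not called with scaling by total counts or in DESeq2, and the parp1parp2 term was not called with DESeq2 or with its size factors. The third sulfate member, miR395a-star, had log2 ratios of 1.51, 1.40 and -0.74 on counts of 6 to 26, and 0 of the 3 shared a direction over the genotypes.

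miR399b, which silences the ubiquitin-conjugating enzyme PHO2 and accumulates when phosphate is scarce, followed a like course. It was at 1164 scaled CPM in untreated WT and 1568 with flg22, 1120 and 1691 in parg1-1, and 2043 and 865 in parp1parp2. The highest library was untreated parp1parp2 and the lowest was parp1parp2 with flg22. The log2 ratios were 0.43, 0.59 and -1.24, and all 3 intervals excluded 0. The parp1parp2 term was -1.75 ± 0.54 (SE; edgeR adjusted p = 0.0425), and it was not called with DESeq2 or with its size factors.

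The other 2 called members were rare relatives of abundant miRNAs, and were higher in parp1parp2 with flg22. miR398a held 234 counts in untreated WT and 360 with flg22, 31 and 30 in parg1-1, and 41 and 264 in parp1parp2. In scaled CPM the untreated parp1parp2 library, at 327, was nearer to the parg1-1 libraries, and the flg22 library, at 2307, was nearer to those of WT. The log2 ratios were 0.24, 0.00 and 2.82 (2.34 to 3.33). The shared log2 fold change, 1.02 ± 0.34 (SE), was 0.16 without the parp1parp2 library with flg22 and 1.53 without that of WT. The parp1parp2 term was 2.65 ± 0.57 (SE; edgeR adjusted p = 0.000374). Relative to miR398b, from which it differs by 1 base, miR398a held 0.774 and 0.982% of the counts in WT, 0.117 and 0.126% in parg1-1, and 0.203 and 1.21% in parp1parp2.

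miR159C, of the family that silences GAMYB-like transcription factors, held 194 counts in untreated WT and 224 with flg22, 86 and 43 in parg1-1, and 56 and 201 in parp1parp2. Its log2 ratios were -0.17, -0.95 and 1.97. The parp1parp2 term was 2.47 ± 0.53 (SE; edgeR adjusted p = 0.000374). Relative to miR159b it held 1.31 and 1.42% in WT, 0.564 and 0.232% in parg1-1, and 0.565 and 1.61% in parp1parp2, so parp1parp2 with flg22 again lay near WT. The abundant members of the family had small ratios, of 0.05, -0.24 and -0.19 for miR159a and -0.29, 0.33 and 0.46 for miR159b.

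**Figure D5:**
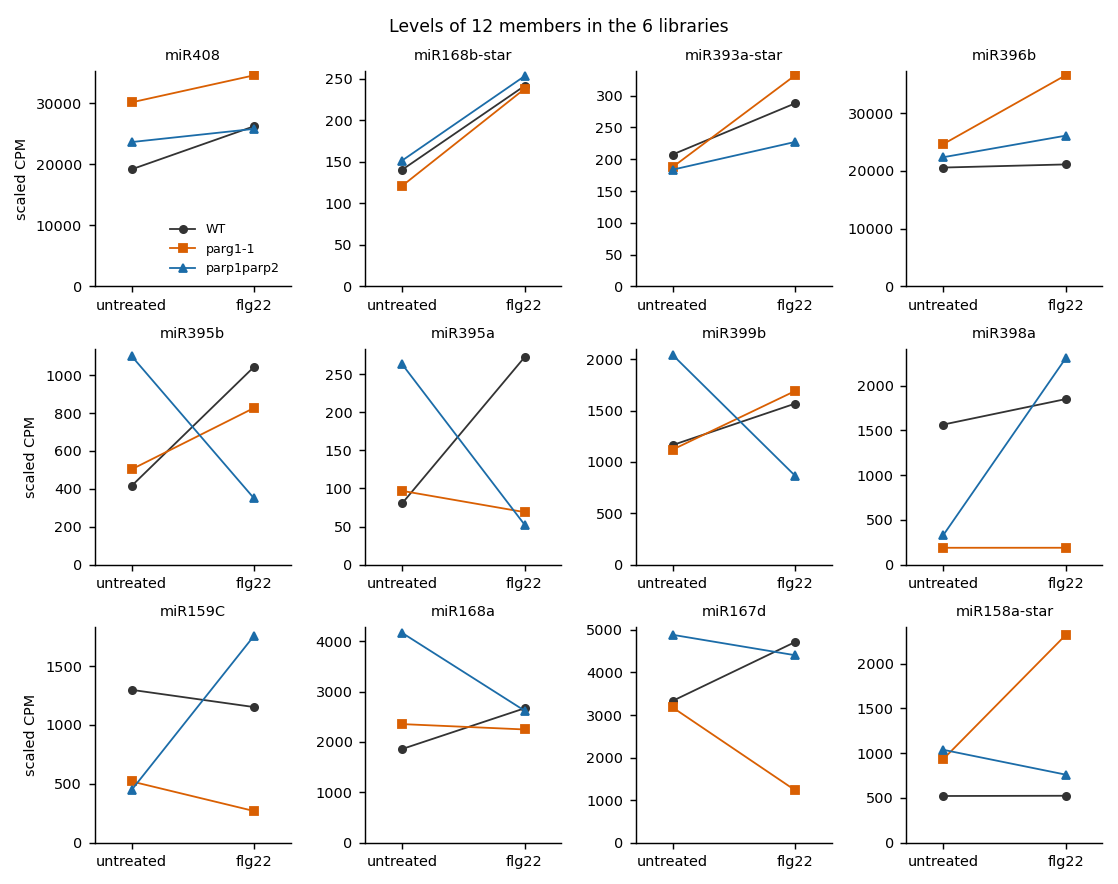
Scaled CPM of 12 members in the 6 libraries, with a line joining the untreated and flg22 libraries of each genotype. The 3 lines of miR168b-star run together, from 121 to 152 up to 238 to 253; those of miR395b, miR399b and miR168a cross, with the parp1parp2 line sloping down.

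Members with the smallest p in each direction that have not been described above mostly rested on low counts. The exception was miR781a, with 35 to 66 counts in every library. miR156b-star, the partner of a miRNA that silences SPL genes, held 24, 19 and 23 counts untreated in WT, parg1-1 and parp1parp2 and 23, 49 and 35 with flg22, with a log2 fold change of 0.60 ± 0.29 (SE). Without the parg1-1 library with flg22 this was 0.12, and without that of WT it was 1.07. miR156f-star held 2 counts in untreated WT and 20 with flg22, 7 and 13 in parg1-1, and 12 and 11 in parp1parp2. Its log2 fold change was 1.03 ± 0.52 (SE), and 0.43 without the WT library with flg22.

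On the lower side, miR173-5p-star held 12, 20 and 11 counts untreated in WT, parg1-1 and parp1parp2 and 13, 8 and 4 with flg22. It is the partner of miR173, which sets off the production of trans-acting siRNAs. Its log2 fold change was -0.88 ± 0.48 (SE). miR169a, which silences NF-YA subunits, held 23, 18 and 13 counts untreated and 29, 4 and 8 with flg22, with a log2 fold change of -0.68 ± 0.39 (SE). Without the parg1-1 library with flg22 this was -0.30, and without that of WT it was -1.26. The estimates of miR157d, miR866-3p and miR781a, between -0.47 and -0.40, had SEs of 0.24 to 0.27. All 7 had an edgeR adjusted p of 0.999.

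The remaining families were sorted by the targets they are known for, and in no list did more than 3 members share a direction higher or lower, apart from 4 each way among the 52 members in no list. Of 5 miR169 members, 0 were higher and 3 were lower in all 3 genotypes, with a median log2 fold change of -0.31. Of 12 members of the juvenile-to-adult phase families miR156, miR157 and miR172, 3 were higher and 2 were lower. Of 17 members of families that act on leaf polarity, meristems and organ growth, star strands included, 1 was higher and 0 were lower. That member was miR396b, which silences growth-regulating factors, with log2 ratios of 0.04, 0.57 and 0.22. With DESeq2 size factors its WT ratio was just under 0, at -0.0040. It differs from the more counted miR396a by 1 base (G21U), so its counts may be uncertain. Summed over the mature miR396 members, the log2 ratios in WT, parg1-1 and parp1parp2 were -0.26, 0.16 and 0.27. For these sums the TMM factors were fitted again on counts summed per family. The sums are therefore not on the scale of the member ratios. On the family scale the WT ratio of miR408 was 0.32, beside 0.45 among the members.

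Of the 6 members of families that act on MYB and TCP factors, 1 was higher in all 3 genotypes, the star strand miR319b-star. The mature members of these families were mixed. Of the 8 members of the trans-acting siRNA trigger families, 2 were lower, miR161.2 and the star strand miR173-5p-star. The phosphate, sulfate and miR845 families had 0 in either direction. The 7 members whose side depends on the scaling are included in these counts. The lists were described by their counts and not tested.

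Of 43 star strands, 10 were higher and 3 lower in all 3 genotypes, beside 7 and 9 of 93 mature members. With scaling by total counts these became 6 and 5 star strands and 6 and 14 mature members, and the difference between star and mature members was not tested. Their median log2 fold change was 0.10, beside -0.04 for mature members. Star members had a median of 29 mean counts and mature members 70.3. Members with fewer than 30 mean counts, of either kind, were 11 higher and 6 lower of 59, and the part of low counts in the star result was not tested. Of 38 star strands with a mature partner among the members, the star-to-mature ratio was higher with flg22 in all 3 genotypes for 9, lower for 1 and mixed for 28. The 10 that shared a direction are 26.3% of the pairs, near the 25% that even, independent signs would give. That 9 of the 10 were higher was not tested. Several star strands were set against 1 mature row merged over several loci, such as miR156a at 6 loci and miR166a at 7. miR168b-star, miR167a-star, miR393a-star and miR393b-star were among the 9, and the last 2 are set against the same miR393a counts, with a change in parp1parp2 of 0.0048 on the log2 scale for miR393b-star. miR822-star had the most even change, with 0.41, 0.45 and 0.31 on the log2 scale.

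Over whole libraries the share of star strands differed between treatments by less than the spread between libraries. They took 3.57% ± 0.30 of member counts untreated and 3.45% ± 0.24 with flg22 (SD, n = 3 libraries each; exact permutation test by sign flips over the 3 genotype pairs, two-sided, p = 0.75). With 3 pairs this test cannot go below 0.25. The share of counts from members that begin with A was higher with flg22 in all 3 genotypes, at 4.83 and 5.40% in WT, 5.55 and 6.08% in parg1-1 and 4.55 and 4.77% in parp1parp2 (exact permutation p = 0.25). Without miR408, which begins with A, the share was lower with flg22 in WT, at 2.82 and 2.68%, and higher in parg1-1 and parp1parp2, at 2.55 and 2.74% and 2.21 and 2.30%. The share of 21-base members was also higher in all 3, at 84.4% ± 1.45 untreated and 85.5% ± 0.76 with flg22 (SD, n = 3 libraries each; exact permutation p = 0.25). Lower in all 3 were the shares of 20-base members and of members that begin with G or with U (exact permutation p = 0.25 each). The 20-base share was 13.4% ± 1.42 untreated and 12.5% ± 1.32 with flg22. Shares by length, like shares by first base, are parts of 1 total, so they do not vary independently.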

How the data were processed

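Small RNA of 15 to 30 nt was recovered from a gel after TRIzol extraction and made into libraries with a NEBNext kit and 15 PCR cycles, per the labels' protocols. The authors deposited whole-number read counts over 679 named intervals for each library. Bowtie 0.12.8, bedtools and TAIR10 are named in the submitters' processing notes, with no role; the counting rule is not given in these sources, and no molecular identifiers are named. Rows with identical counts at several loci were merged (33 members at 84 loci). Tests used edgeR 4.0.16 in R 4.3.3 (TMM, glmQLFit, glmQLFTest, two-sided) on genotype and treatment over all members. The common biological coefficient of variation was 19.4%, with 2 residual and 53.0 prior degrees of freedom. The main single-genotype fits had infinite prior degrees of freedom. Some alternatives had fewer, such as 3.85 for WT with total counts and 7.42 for parp1parp2 with DESeq2 size factors. The libraries share genotype names but no replicate numbers beyond 1, so genotype was the block. DESeq2 1.42.0, other scalings, filters, merging, family sums and left-out libraries were alternatives. Ratios within a genotype used a prior count of 0.5 where a library was at 0. Named members were those with the smallest p, intervals on 1 side, the largest ranges, called terms or most counts, and families miR393, miR160, miR167, miR398, miR773, miR472, miR825, miR168, miR162 and miR403; miR396b, miR857, miR395a-star, miR156g and miR822-star were named after their values were seen. The members and lists were chosen with earlier results of these data known. No miR773 row passed the filter.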

Additional observations from a re-analysis of the deposited data

Results flagged for a closer look

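In edgeR the flg22 response of 5 members was called different between genotypes, by a term for 1 genotype with an adjusted p under 0.05. These fits had 1 residual and infinite prior degrees of freedom. DESeq2 called 3 of the 5, miR395b, miR398a and miR159C, each for parp1parp2, and 0 for WT. With DESeq2 size factors in edgeR, the parp1parp2 terms of miR395a and miR399b were not called, and with total counts the WT term was not. The prior degrees of freedom of those fits were 7.42 and 3.85, so scaling was not the only thing that changed. For miR395a the WT term was 3.14, relative to 1 response fitted to both mutants. Their counts were unlike, going from 16 to 11 in parg1-1 and from 33 to 6 in parp1parp2. The parp1parp2 term was -3.12, relative to 1 response fitted to WT and parg1-1, which went in opposite directions (12 to 53 counts in WT). In parp1parp2 the term was -2.67 for miR395b, -1.75 for miR399b, 2.65 for miR398a and 2.47 for miR159C. Each term rests on 1 flg22 and 1 untreated library, and a response of the genotype and a deviation of either library cannot be told apart. The 5 parp1parp2 terms take their direction from the labels of that pair, and an exchange of those labels was not tested. Relative to miR398b, miR398a held 0.203% in untreated parp1parp2 and 1.21% with flg22, beside 0.774 and 0.982% in WT. Relative to miR159b, miR159C held 0.565 and 1.61% in parp1parp2, beside 1.31 and 1.42% in WT. Both WT libraries had like shares, so nearness to WT in these shares does not tell a treated from an untreated library.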

How the results depend on the processing

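The additive test called 0 members under 13 of its 14 alternatives and 1, miR398a, with no filter on low counts (318 members; edgeR adjusted p = 0.0145). Without the genotype as replicate block it called 0, with 2 members at an unadjusted p under 0.05. Leaving out each library in turn it called 0 members each time, with 5 to 13 at an unadjusted p under 0.05 and a smallest adjusted p of 0.0655. The share of members with 1 direction ran from 11.5%, among the 52 members with at least 50 counts in every library, to 24.6%. The number with all 3 counting intervals on 1 side was 0 with no filter, 2 with at least 50 counts in every library (miR408 and miR396b), 2 with every deposited row kept (miR159a and miR408) and 4 with counts summed per family (miR157, miR158, miR408 and miR398-star). With total counts it was 1, miR398b-star in place of miR408. The WT term gave 2 calls with DESeq2 size factors, 0 with total counts, 0 in DESeq2 and 5 with every deposited row. The parp1parp2 term gave 3 calls with DESeq2 size factors, 3 in DESeq2 and 11 with every deposited row, where loci of 1 sequence count separately. The causes were not tested.

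Of 524 alternative values of the log2 fold change of 42 named members, 475 kept their direction and their side of the threshold, 1 passed it (miR398a) and 48 changed sign. None of the members that changed sign was called in the additive test. With total counts the values were -0.026 for miR472, -0.0087 for miR166a and -0.024 for miR398b. With at least 50 counts they were 0.025 for miR399b and 0.025 for miR167C, and with every deposited row -0.0082 for miR472 and -0.0065 for miR398b. The other 41 came from leaving out 1 library, which removes its genotype from the comparison. Over such fits the value ran from -1.38 to 0.82 for miR395a, -0.43 to 1.02 for miR395b, -0.52 to 0.81 for miR159C and -0.45 to 0.51 for miR399b. It ran from -0.27 to 0.72 for miR158a-star, -0.75 to 0.12 for miR167d, -0.37 to 0.23 for miR168a and -0.0113 to 0.35 for miR168a-star. It ran from -0.29 to 0.40 for miR825, -0.90 to 0.018 for miR398C-star, -0.45 to 0.0079 for miR393a and -0.058 to 0.11 for miR393b-star. For the other members it ran from -0.16 to 0.11 for miR166a, -0.12 to 0.071 for miR398b, -0.21 to 0.042 for miR167C, -0.21 to 0.016 for miR167a, -0.0086 to 0.12 for miR167a-star and -0.072 to 0.059 for miR472. Members that kept their sign also moved on leaving out a library, from 0.13 to 1.53 for miR398a, 0.12 to 1.07 for miR156b-star, 0.43 to 1.69 for miR156f-star, 0.34 to 0.65 for miR393a-star, -1.26 to -0.30 for miR169a, -1.28 to -0.73 for miR173-5p-star, -0.97 to -0.20 for miR157d, -0.61 to -0.22 for miR781a and -0.71 to -0.31 for miR866-3p. For miR168b-star the range was 0.71 to 0.87. Depth limits the members with few counts: 59 of 136 had under 30 mean counts.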
